A study of Mus musculus with 8 samples.

Results

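Pglyrp1, Pglyrp2, Clec7a, Clec4e, Clec4d, Clec4n and Clec10a encode 2 peptidoglycan recognition proteins and 5 C-type lectin receptors, which bind microbial cell walls and sugars. The 7 genes were chosen by name, through probe sets that the platform annotation pairs with a single symbol, and had 9 of the 34945 such probe sets. They are 7 of the 18193 genes measured. Each gene was followed by its brightest probe set, and Clec4e and Clec4n also had another. Levels are log2 of the deposited intensity, so a difference of 1 is a doubling.

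The cells were CD11b+ cells of NOD.Idd3 and NOD mice. NOD mice develop autoimmune diabetes spontaneously, and NOD.Idd3 is a congenic strain named for the diabetes locus Idd3. The groups were NOD.Idd3 with peptidoglycan (PGN, 5 µg/ml), NOD.Idd3 unstimulated (medium alone), NOD with PGN and NOD unstimulated, each with 2 single-channel arrays and 4 h of incubation at 37 °C. The labels name no tissue of origin, age, sex or number of mice per array. The labels call the 2 arrays of a group biological replicates without naming animals or pools, so p-values measure the spread between these samples only. CD11b marks monocytes, macrophages and neutrophils among other cells. Itgam, which encodes CD11b, lay between 7.87 and 9.02 on the 8 arrays, and its partner integrin gene Itgb2 between 13.11 and 13.46. The median of all probe sets was 5.42 to 5.50 per array.

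Peptidoglycan recognition proteins bind the bacterial wall polymer itself. PGLYRP1 is a bactericidal protein stored in neutrophil granules, and PGLYRP2 is an amidase that cuts peptidoglycan and is made mainly by the liver. C-type lectin receptors sit on the surface of myeloid cells. Dectin-1 (Clec7a) binds fungal beta-glucans and signals through a motif in its own tail. Mincle (Clec4e), MCL (Clec4d) and dectin-2 (Clec4n) bind microbial glycolipids or mannans and signal through the adaptor FcR gamma, and like dectin-1 they act through Syk and CARD9. MGL1 (Clec10a) binds galactose-type sugars and is carried by macrophages and dendritic cells.

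The promoters of Pglyrp1 and Clec4e are shown. Pglyrp1 was lower with PGN, and Clec4e was the only one of the 5 lectin genes with a positive estimate in each strain. Both windows held a searched motif, as did that of Pglyrp2, which is not printed. Windows from 250 bases before to 50 after a start site were searched on both strands for NF-kB (GGGANTTTC), C/EBP (TTGCNNAA), AP-1 (TGANTCA) and PU.1 (GAGGAAGT) motifs. Sequences are from RefSeq (GRCm38.p6), which gave windows for 5 of the 7 genes. The 250 bases before the start site are printed on the gene's strand, with the motif in capitals, at chr7:18884440-18884689 (plus strand) for Pglyrp1 and chr6:123289872-123290121 (minus strand) for Clec4e.
Pglyrp1: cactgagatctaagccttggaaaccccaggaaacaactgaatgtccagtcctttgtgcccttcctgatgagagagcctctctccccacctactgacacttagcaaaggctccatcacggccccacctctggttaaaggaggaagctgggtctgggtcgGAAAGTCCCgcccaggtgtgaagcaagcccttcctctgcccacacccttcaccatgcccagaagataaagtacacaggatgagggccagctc
Clec4e: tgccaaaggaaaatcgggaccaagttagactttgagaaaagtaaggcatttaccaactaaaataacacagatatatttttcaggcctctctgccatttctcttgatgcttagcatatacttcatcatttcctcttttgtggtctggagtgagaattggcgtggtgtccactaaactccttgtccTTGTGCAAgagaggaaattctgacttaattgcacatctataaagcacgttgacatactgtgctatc
The Pglyrp1 window held an NF-kB match on the opposite strand whose first base lay at -92 from the start site, and 1.11% of the 32851 windows of all genes held that motif. The Clec4e window held a C/EBP match on the opposite strand at -66, and 10.8% of all windows held one. The Pglyrp2 window held 2 C/EBP matches. None of the 4 motifs was found in the windows of Clec4d or Clec7a. A match of letters is a description of these windows and not a binding site.

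The first question was how the genes differed after PGN. Of the 7 genes, Clec10a and Pglyrp1 fell with PGN when the effect was averaged over the strains, and none rose. Clec10a fell in each strain taken alone, and Pglyrp1 fell in NOD. Clec7a was lower on every PGN array than on any unstimulated array, as were 9.41% of all genes, but did not pass. Across all genes 11.3% passed for the averaged effect, and 6.40% passed as lower. A further 4.86% of all genes passed as higher. In NOD.Idd3 1 of the 7 passed, against 3.14% of all genes (1.25% lower, 1.89% higher), and in NOD 2 of the 7, against 3.94% (2.13% lower, 1.81% higher). A gene passed where limma's p, adjusted by Benjamini-Hochberg over all 18193 genes, was under 0.05. The median change of the 7 genes was -0.36, against 0.05 over all genes.

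**Figure D1:**
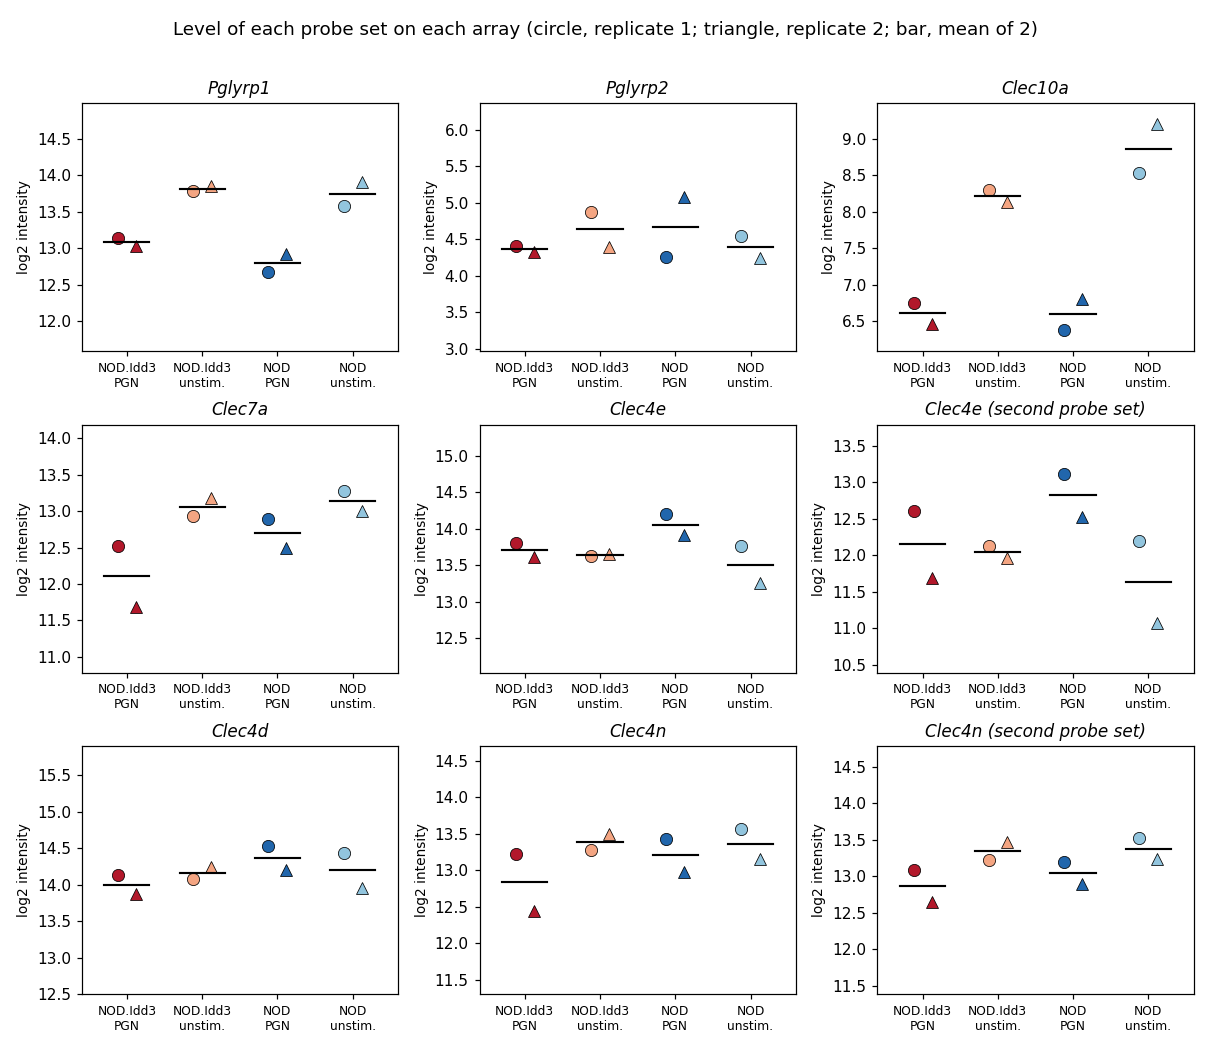
Log2 intensity of each of the 9 probe sets of the 7 genes on each array, by group, with replicate 1 as a circle, replicate 2 as a triangle and the mean of 2 arrays as a bar. Every panel spans the same range of log2 units around its own centre. Clec10a and Pglyrp1 lay lower on all PGN arrays than on any unstimulated array of either strain, as did 9.41% of all genes. Clec7a and the second probe set of Clec4n were separated in the same way but did not pass. Clec4d and Pglyrp2 overlapped.

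Clec10a, the galactose-binding lectin of macrophages and dendritic cells, had the largest change of the 7. It stood at 6.75 and 6.47 in NOD.Idd3 cells with PGN, against 8.30 and 8.14 in unstimulated NOD.Idd3 cells. In NOD cells it stood at 6.38 and 6.81 with PGN, against 8.53 and 9.20 unstimulated. The PGN arrays of both strains therefore shared 1 low range. All of them lay below the unstimulated arrays, as for 9.41% of all genes. Averaged over strains the gene was 3.84-fold lower with PGN (log2 difference -1.94 ± 0.20, SE, 4 arrays per condition, adjusted p in limma 8.13e-04).

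Within strains the fall of Clec10a was 3.06-fold in NOD.Idd3 (-1.61 ± 0.28, limma adjusted p = 0.0209) and 4.82-fold in NOD (-2.27 ± 0.28, limma adjusted p = 0.00567). The 2 effects share no arrays. By replicate number the change was -1.55 and -1.67 in NOD.Idd3 and -2.15 and -2.39 in NOD. The group means were lowest in NOD.Idd3 with PGN (6.61) and NOD with PGN (6.60), which did not differ beyond their spread, followed by NOD.Idd3 unstimulated (8.22) and NOD unstimulated (8.87). The call in NOD.Idd3 did not hold when any 1 of its 4 arrays was left out, with adjusted p from 0.0588 to 0.15, where the lone array left is assumed to vary like the other groups.

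Pglyrp1, the neutrophil granule protein, was the other gene that fell. It stood at 13.14 and 13.03 in NOD.Idd3 cells with PGN, against 13.78 and 13.86 in unstimulated NOD.Idd3 cells. In NOD cells the values were 12.67 and 12.93 with PGN, against 13.58 and 13.91 unstimulated. All 4 PGN arrays lay below all 4 unstimulated arrays, as did 9.41% of all genes. The averaged difference was -0.84 ± 0.15 (SE, 4 arrays per condition, adjusted p in limma 0.00902), or 1.79-fold lower with PGN.

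In NOD.Idd3 alone Pglyrp1 differed by -0.74 ± 0.21 and did not pass (limma adjusted p = 0.119). In NOD alone it fell by 0.94 ± 0.21 (limma adjusted p = 0.0478). That call lay close to the threshold and held under 8 of 18 other settings, with adjusted p from 0.0103 to 0.277. The difference within each replicate number was -0.65 and -0.83 in NOD.Idd3 and -0.91 and -0.98 in NOD. Unstimulated means were 13.82 in NOD.Idd3 and 13.74 in NOD, a pair that did not differ beyond its spread, and the means with PGN were 13.08 in NOD.Idd3 and 12.80 in NOD.

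Pglyrp2, the peptidoglycan-cutting amidase, was dim. Its values were 4.41 and 4.33 in NOD.Idd3 with PGN and 4.87 and 4.40 in unstimulated NOD.Idd3 cells. In NOD they were 4.26 and 5.08 with PGN and 4.54 and 4.25 unstimulated. Among all probe sets these lay between percentiles 25.1 and 39.3 of their arrays, and the groups overlapped in each strain. The difference was -0.27 ± 0.30 in NOD.Idd3 and 0.28 ± 0.30 in NOD, and by replicate number in NOD it was -0.27 and 0.83. The averaged difference was 0.01 ± 0.21 with a 95% interval from -0.48 to 0.49.

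**Figure D2:**
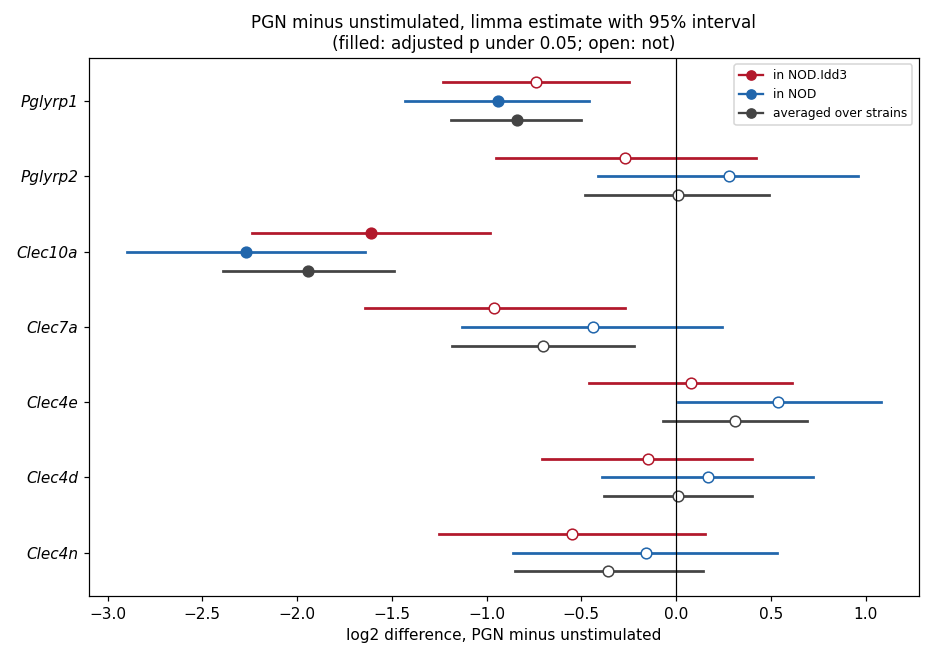
Log2 difference between PGN and unstimulated arrays for the 7 genes, with the limma 95% interval, in NOD.Idd3, in NOD and averaged over the strains. Filled points passed at an adjusted p under 0.05. Clec10a is filled in all 3 comparisons and Pglyrp1 in NOD and in the average (-0.84).

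Clec7a, which encodes dectin-1, had 12.52 and 11.69 in NOD.Idd3 cells with PGN, against 12.93 and 13.18 in unstimulated NOD.Idd3 cells. NOD cells had 12.89 and 12.50 with PGN, against 13.28 and 13 unstimulated. Within each strain the PGN arrays lay below the unstimulated ones, as for 22.0% of all genes in NOD.Idd3 and 21.9% in NOD. So did they over both strains, as for 9.41% of all genes. The averaged difference was -0.70 ± 0.21 and did not pass (limma adjusted p = 0.072). With the replicate number as a block in the fit the adjusted p was 0.0338, and without replicate 1 of PGN-treated NOD.Idd3 it was 0.0281.

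The size of the Clec7a difference varied with the array. In NOD.Idd3 it was -0.42 in replicate 1 and -1.49 in replicate 2, and in NOD it was -0.39 and -0.50. The fitted difference was -0.96 ± 0.30 in NOD.Idd3 (limma adjusted p = 0.15) and -0.44 ± 0.30 in NOD (limma adjusted p = 0.474), and neither passed. Leaving out replicate 2 of PGN-treated NOD.Idd3 gave an averaged difference of -0.49 with a limma adjusted p of 0.193. Over the 17 other settings the adjusted p ran from 0.0281 to 0.215. Replicate 2 of PGN-treated NOD.Idd3 held the lowest value of Clec7a, Clec4d and Clec4n, which made it the lowest of the 8 arrays for 3 of the 7 genes. The cause was not tested.

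The other 3 lectin genes lie side by side on chromosome 6 in the order Clec4n, Clec4d, Clec4e (GRCm38.p6, chr6:123229843-123247024, chr6:123262107-123275268 and chr6:123281789-123289871). Clec7a lies farther along the same chromosome (chr6:129461591-129472785), among other lectin genes. None of the 3 neighbours passed in any comparison, and their estimates with PGN did not share 1 direction.

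Clec4e, which encodes Mincle, had 13.81 and 13.62 in NOD.Idd3 cells with PGN, against 13.63 and 13.65 in unstimulated NOD.Idd3 cells, and these overlapped. NOD cells had 14.20 and 13.91 with PGN, against 13.76 and 13.26 unstimulated, without overlap. Among all genes 45.2% had no overlap between the 2 NOD groups, and 47.9% had none between the NOD.Idd3 groups. The difference was 0.08 ± 0.24 in NOD.Idd3 and 0.54 ± 0.24 in NOD (limma adjusted p = 0.253), and its average was 0.31 ± 0.17 with a 95% interval from -0.07 to 0.69.

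The dimmer probe set of Clec4e gave larger estimates with a wider spread. Its values were 12.61 and 11.69 in NOD.Idd3 cells with PGN and 12.13 and 11.96 in unstimulated NOD.Idd3 cells. In NOD it had 13.11 and 12.53 with PGN, against 12.19 and 11.07 unstimulated. In a fit over all 34945 probe sets its difference was 0.10 ± 0.42 in NOD.Idd3 and 1.19 ± 0.42 in NOD (limma adjusted p = 0.164). Both probe sets had the same sign in each strain, and neither passed.

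Clec4d, which encodes MCL, a partner of Mincle, varied least of the 5 lectin genes. Its 8 values lay between 13.87 and 14.53, with 14.13 and 13.87 in NOD.Idd3 with PGN and 14.07 and 14.24 in unstimulated NOD.Idd3 cells. The NOD values were 14.53 and 14.20 with PGN and 14.44 and 13.96 unstimulated. The groups overlapped in both strains. The difference was -0.15 ± 0.24 in NOD.Idd3 and 0.17 ± 0.24 in NOD. The averaged difference was 0.01 ± 0.17, with a 95% interval from -0.38 to 0.40.

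Clec4n, which encodes dectin-2, had 13.23 and 12.44 in NOD.Idd3 cells with PGN and 13.28 and 13.50 in unstimulated NOD.Idd3 cells. In NOD it had 13.43 and 12.98 with PGN and 13.57 and 13.16 unstimulated. The arrays overlapped in NOD and not in NOD.Idd3, where replicate 2 with PGN lay apart. In NOD.Idd3 22.0% of all genes lay lower with PGN without overlap. The difference was -0.55 ± 0.31 in NOD.Idd3 and -0.16 ± 0.31 in NOD, and averaged over strains -0.36 ± 0.22 (limma adjusted p = 0.353).

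The other probe set of Clec4n had 13.08 and 12.65 in NOD.Idd3 cells with PGN, against 13.22 and 13.47 in unstimulated NOD.Idd3 cells. In NOD it had 13.20 and 12.90 with PGN, against 13.52 and 13.23 unstimulated. Its PGN arrays lay lower without overlap in each strain, as for 22.0% of all genes in NOD.Idd3 and 21.9% in NOD. They also did so over both strains, as for 9.41% of all genes. This probe set had the sign of the brighter one in both strains. Its difference was -0.48 ± 0.24 in NOD.Idd3 and -0.32 ± 0.24 in NOD, and the average of -0.40 ± 0.17 did not pass (limma adjusted p = 0.184).

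CD11b+ cells are a mixture, and in such bulk samples fewer cells of a type and less RNA per cell cannot be told apart. Of 10 neutrophil markers measured, 3 fell and none rose with PGN, with a median of -0.32. Their summed linear intensity was 118475 to 121410 in NOD.Idd3 with PGN and 130722 to 168676 in unstimulated NOD.Idd3 cells. In NOD it was 127060 to 128929 with PGN and 142736 to 143782 unstimulated. The sum was lower on the PGN arrays of each strain, as was Pglyrp1. A linear sum weighs bright markers most and need not follow the number of neutrophils. In NOD the brightest markers, S100a9 and S100a8, changed by 0.06 ± 0.31 and 0.02 ± 0.21. In NOD.Idd3 they changed by -0.26 ± 0.31 and -0.17 ± 0.21, and neither passed in either strain. The 3 that fell were the metalloproteinase genes Mmp9 (-1.74 ± 0.19) and Mmp8 (-1.16 ± 0.17) and the chemokine receptor gene Cxcr2 (-1.79 ± 0.44). The other 7 did not pass. They were Csf3r (-0.82 ± 0.26), Ltf (-0.46 ± 0.22), Ngp (-0.18 ± 0.15) and Camp (-0.12 ± 0.21), the calprotectin genes S100a8 (-0.08 ± 0.15) and S100a9 (-0.10 ± 0.22), and the granule gene Lcn2 (0.07 ± 0.14). Cxcr2, Csf3r, Ngp, Camp, S100a8, S100a9 and Lcn2 were named after their values were seen. The part of these markers in the Pglyrp1 result was not tested.

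Beside Clec10a stand the markers of macrophages and dendritic cells. Of 10 macrophage markers 1 fell (Vsig4, a complement receptor gene, at -0.67 ± 0.17) and none rose, with a median of -0.05. Their sum was 20392 to 21945 in NOD.Idd3 with PGN and 17501 to 18083 in unstimulated NOD.Idd3 cells. In NOD it was 25988 to 26077 with PGN and 21914 to 22784 unstimulated. Within each strain the macrophage sum was therefore higher on the PGN arrays. Most of that linear sum came from the brightest markers, Cd68 (0.31 ± 0.13) and Adgre1 (0.14 ± 0.16), and neither passed. Both are outside the rule for naming genes and were chosen for their brightness, after their values were seen. The sum therefore says little about the dimmer markers.

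Of 9 dendritic cell markers 1 rose (Ccr7, a chemokine receptor gene, at 1.64 ± 0.22) and none fell, with a median of -0.03. Itgax, also bright, changed by -0.62 ± 0.31 and did not pass, and Xcr1 was below the 25th percentile on every array. The group mean of Ccr7 was 12.10 with PGN against 10.09 unstimulated in NOD.Idd3, and 12.34 against 11.07 in NOD, which weighs on a linear sum. Their sum was 7461 to 7615 in NOD.Idd3 with PGN and 3896 to 6303 in unstimulated NOD.Idd3 cells, and 9271 to 10032 in NOD with PGN and 8084 to 9386 unstimulated. Of 8 monocyte markers Cx3cr1, a chemokine receptor gene, fell by 2.66 ± 0.35 (limma adjusted p = 0.00236), a larger estimate than that of Clec10a, and Nr4a1, a nuclear receptor gene, rose by 0.82 ± 0.18. The other 6 did not pass. Over all 8 the sums were 31256 to 31360 in NOD.Idd3 with PGN, 32121 to 37704 in unstimulated NOD.Idd3 cells, 30056 to 34803 in NOD with PGN and 31521 to 33241 in unstimulated NOD cells. The eosinophil markers had 1 fall among 5, in Siglecf (-1.16 ± 0.29). Their part in the Clec10a result was not tested.

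Of 27 other C-type lectin genes measured, 2 fell, none rose and 25 did not pass for the averaged effect. Of all genes 6.40% fell and 4.86% rose. Their median was 0.16, against 0.05 over all genes. Clec4b1, a lectin gene near Clec4n on chromosome 6, fell by 2.10 ± 0.39 (limma adjusted p = 0.01). It averaged 7.32 with PGN against 9.24 unstimulated in NOD.Idd3, and 7.24 with PGN against 9.53 unstimulated in NOD. Colec12, a scavenger receptor with a lectin domain, fell by 1.79 ± 0.30 (limma adjusted p = 0.00689). Ly75 (DEC-205) changed by 0.55 ± 0.16 and Mrc1 (the mannose receptor) by 0.52 ± 0.17, and neither passed for the average. In NOD.Idd3 alone Ly75 changed by 0.13 ± 0.22, and in NOD alone it rose by 0.97 ± 0.22 (limma adjusted p = 0.0476).

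The genes lying next to the 7 did not all move alike. Between Clec4b1 and Clec4n lies Clec4a2, an inhibitory lectin gene, which changed by -0.40 ± 0.17 and did not pass. Next to Clec7a, Clec1a changed by 0.16 ± 0.36 and Olr1 by 0.73 ± 0.26. Mgl2, the paralog beside Clec10a on chromosome 11, changed by 0.27 ± 0.19 and was near background, with group means from 3.31 to 3.96. Slc16a13, a transporter gene on the other side of Clec10a, fell by 1.04 ± 0.19 (limma adjusted p = 0.0104). Neither Ccdc61 (-0.27 ± 0.19), beside Pglyrp1, nor Rasal3 (-0.77 ± 0.34), beside Pglyrp2, passed.

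**Figure D3:**
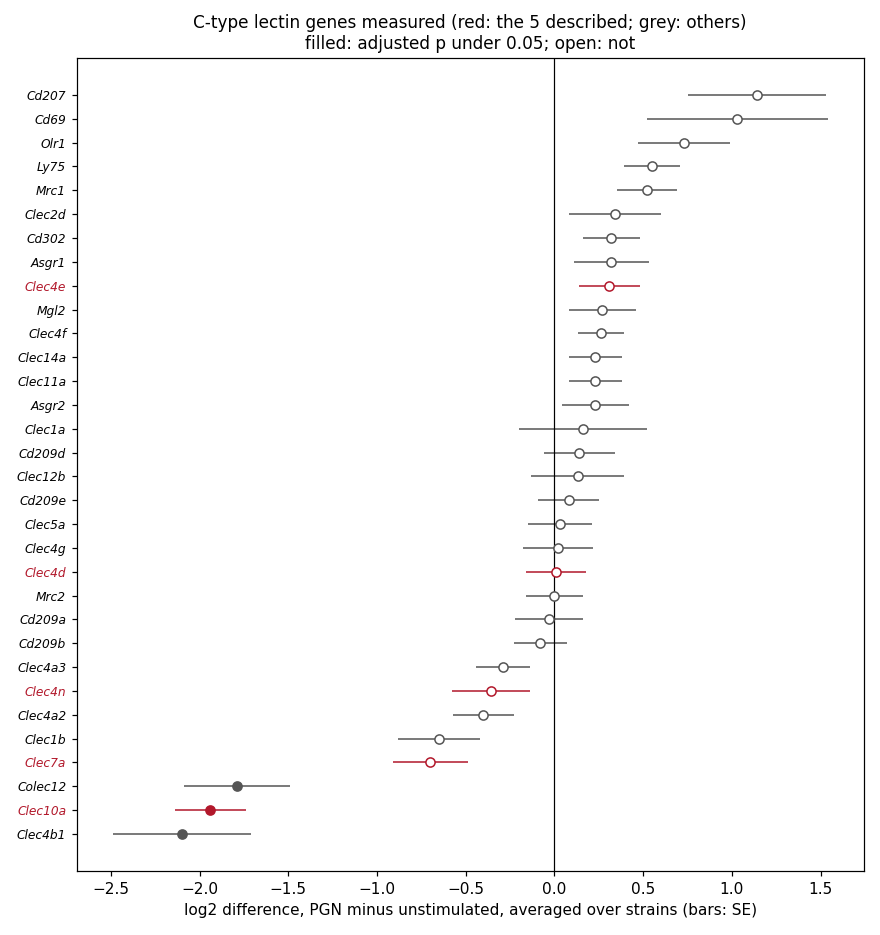
Log2 difference between PGN and unstimulated arrays, averaged over the strains, for the 5 lectin genes described (red) and 27 others (grey), sorted by size, with bars for the SE. Clec4b1, Clec10a and Colec12 are the only filled points (adjusted p under 0.05), all between -2.10 and -1.79.

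The signalling genes downstream of these receptors changed in part. Of 26 genes measured on the Syk and CARD9 list, 5 rose, 2 fell and 19 did not pass, with a median of 0.06. Rel, an NF-kB subunit gene, rose by 1.82 ± 0.14, Malt1, the paracaspase that works with CARD9, by 1.07 ± 0.15, the guanine nucleotide exchange factor gene Vav1 by 0.86 ± 0.14 and the kinase gene Src by 1.16 ± 0.20. Inpp5d, which encodes the inhibitory lipid phosphatase SHIP1, fell by 1.20 ± 0.16. The adaptor gene Fcer1g, shared by Mincle, MCL and dectin-2, changed by 0.03 ± 0.14, and the kinase gene Syk by 0.20 ± 0.14. Fcer1g and Syk are outside the rule for naming genes and were chosen after their values were seen.

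On the list of other genes that sense bacterial walls, 3 of 23 rose, 3 fell and 17 did not pass, with a median of 0.17. Slc46a3, a lysosomal transporter gene, fell by 1.68 ± 0.20, and the inflammasome sensor gene Nlrp3 rose by 1.69 ± 0.34. Slc15a3, whose product carries peptidoglycan fragments out of endosomes, rose by 0.61 ± 0.14, and Hk2, whose product hexokinase 2 binds a peptidoglycan sugar, rose by 1.28 ± 0.32. Of 16 genes known to be induced through C-type lectins, 10 rose and none fell, with a median of 1.50, and the cytokine and chemokine genes Csf3 (7.07 ± 0.24), Il10 (6.52 ± 0.28), Tnf (1.68 ± 0.20) and Ccl4 (2.77 ± 0.34) were among them. Most of these are also targets of Toll-like receptors.

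Among all genes, the profiles most like Clec10a over the 8 arrays were those of Fbxo31, Tmem38a and Nbeal2. Likeness was the root mean square difference of centred log2 values, at 0.205, 0.209 and 0.214, where Clec10a itself had an SD of 1.09. Their changes with PGN were -1.76 ± 0.22, -1.83 ± 0.23 and -1.97 ± 0.21. For Clec7a (SD 0.51) the nearest profiles were those of Trp53inp1 (0.123), Trp53bp1 (0.132) and Ipo7 (0.133), and none of the 3 passed for PGN. The other 5 genes had an SD of 0.5 or less and were not matched.

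A further comparison set the PGN effect in NOD.Idd3 against that in NOD. No gene of the 7 passed, and limma called 0 of 18193 genes, with 314 at an unadjusted p under 0.05 (1.73%). The difference in response (NOD.Idd3 minus NOD) was 0.66 ± 0.39 for Clec10a, with a 95% interval from -0.23 to 1.55. It was 0.20 ± 0.30 for Pglyrp1 (-0.48 to 0.89), -0.51 ± 0.42 for Clec7a (-1.48 to 0.45) and -0.47 ± 0.33 for Clec4e (-1.23 to 0.29). The other probe sets gave -1.08 ± 0.59 for Clec4e (-2.43 to 0.26) and -0.16 ± 0.34 for Clec4n (-0.94 to 0.61), and neither passed. The remaining estimates were -0.55 ± 0.43 for Pglyrp2 (-1.51 to 0.42), -0.39 ± 0.43 for Clec4n (-1.37 to 0.60) and -0.32 ± 0.34 for Clec4d (-1.10 to 0.47). Responses that differ 2-fold between strains thus lay inside the interval of every gene of the 7 except Pglyrp1.

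The strains were then compared within each condition. None of the 7 genes passed, and limma called 0 genes in each of these comparisons. At an unadjusted p under 0.05 there were 984 genes with PGN (5.41%), 611 unstimulated (3.36%) and 1175 for the average (6.46%). The replicate block called 0, 0 and 27 genes, and none of the 7 was among them. In unstimulated cells Clec10a had 8.30 and 8.14 in NOD.Idd3, against 8.53 and 9.20 in NOD, a difference of -0.65 ± 0.28 with a 95% interval from -1.28 to -0.01 and a limma adjusted p of 1. Its arrays did not overlap, as was the case for 28.3% of all genes (16.3% lower). By replicate number that difference was -0.23 and -1.07. With PGN the difference was 0.01 ± 0.28. The other 6 genes differed by -0.08 ± 0.30 (Clec7a) to 0.24 ± 0.30 (Pglyrp2) between unstimulated strains.

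With PGN, Clec4e and Clec4d were lower on both NOD.Idd3 arrays than on both NOD arrays, with differences of -0.34 ± 0.24 and -0.36 ± 0.24. Pglyrp1 was higher, with 0.29 ± 0.21. None of the 3 passed. For Clec4e this holds for the brighter probe set. The dimmer one differed by -0.67 ± 0.42, its arrays overlapped, and it did not pass. Among the brightest probe sets, the widest estimate with PGN was that of Clec7a, at -0.59 ± 0.30. Its 95% interval ran from -1.28 to 0.09, and its arrays overlapped. Clec4n differed by -0.37 ± 0.31 and Pglyrp2 by -0.30 ± 0.30. Separate arrays, as for Clec4e, Clec4d and Pglyrp1, were found for 34.8% of all genes, in the lower direction for 18.7%. Over both conditions the arrays of the strains overlapped for all 7 genes, while 2.85% of all genes (1.77% lower) had no overlap. Averaged over conditions, the 7 estimates ran from -0.34 ± 0.21 for Clec7a to 0.19 ± 0.15 for Pglyrp1. The Gapdh control probe sets, which compare the 3' and 5' ends of the transcript, also differed between strains. Their 3' minus 5' difference was 0.72 to 0.77 in NOD.Idd3 with PGN and 0.75 to 0.80 in unstimulated NOD.Idd3 cells, against 0.92 to 1.16 in NOD with PGN and 0.88 to 1.08 in unstimulated NOD cells. The Actb controls gave 0.27 to 0.46 and 0.22 to 0.35 in the NOD.Idd3 groups, against 0.48 to 0.58 and 0.43 to 0.54 in the NOD groups, in each case with PGN and unstimulated. Over the 10 macrophage markers the median NOD.Idd3 minus NOD difference was -1.25, and their sums within a condition did not overlap between strains. The B cell markers had a median of -1.10, with sums of 765 to 1181 in NOD.Idd3 with PGN and 905 to 1532 in unstimulated NOD.Idd3 cells, against 1557 to 2766 in NOD with PGN and 2028 to 5119 in unstimulated NOD cells. The sums of the erythroid (median -0.72), platelet (-0.47) and dendritic cell (-0.31) markers were also lower in NOD.Idd3 within each condition, without overlap. No marker of these lists passed between strains. The part of these controls and markers in the strain values was not tested.

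**Figure D4:**
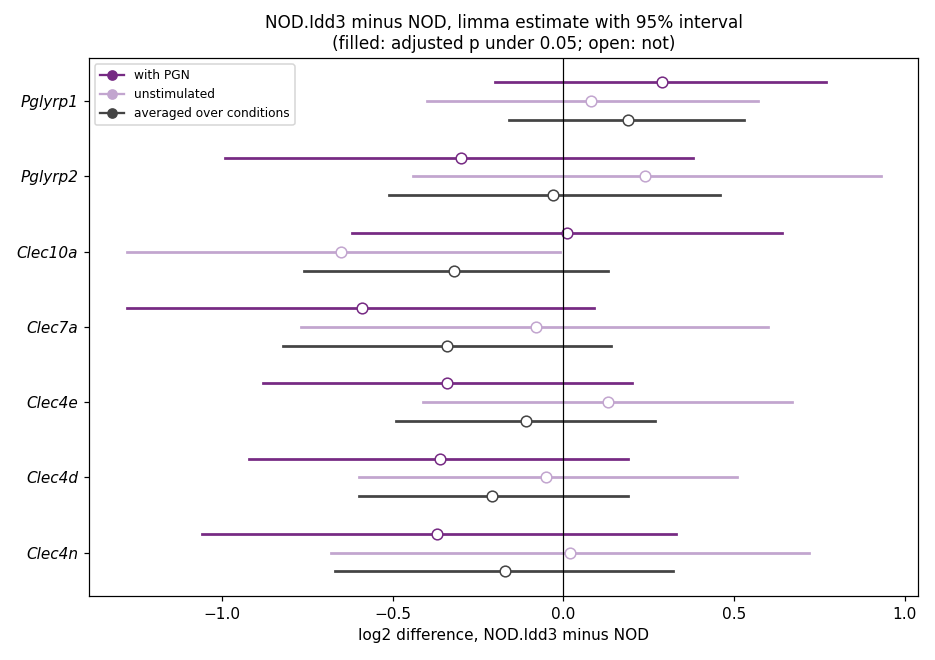
Log2 difference between NOD.Idd3 and NOD arrays for the 7 genes with the limma 95% interval, with PGN, unstimulated and averaged over the conditions. All points are open, since no gene passed at an adjusted p under 0.05. The interval of unstimulated Clec10a (-1.28 to -0.01) is the only one that does not reach 0.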

How the data were processed

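Expression was measured on 8 single-channel arrays of biotin-labelled RNA. The authors deposited a linear intensity for each probe set on each array. RMA is named in the submitters' processing notes, with no version and no chip definition. Log2 was taken, with no further normalization and no filter on dim probe sets. Of 45101 probe sets, 64 controls, those with several symbols (932) and those with none were left out. Of 34945 probe sets with 1 symbol, 34741 matched RefSeq (GRCm38.p6) by gene ID. A gene's brightest probe set by mean represented it.

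The 4 group means were fitted with limma 3.58.1 in R 4.3.3 (lmFit, eBayes; 4 residual and 4.69 prior degrees of freedom), on all 18193 genes and again on all probe sets. Errors are limma standard errors, and the number of arrays limits the precision. In simulated data of 18193 genes, 100 genes were changed by 2 log2 units and 100 by 1, with independent noise per gene. The averaged PGN comparison called 95% and 47% of them. In the real data 11.3% of genes passed and replicate differences correlated between groups, so these rates need not carry over.

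Members and lists were chosen with earlier results of these data known. Named genes are the 7, up to 4 per pathway list by the smallest p for PGN and 2 for strain, 2 per marker list, the likest profiles and up to 3 coding neighbours on each side. Some others, such as Cd68 and Adgre1, were named outside this rule after their values were seen. Lists were described by counts and medians with no set test.

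Replicate 1 arrays share a date in the array names, and the difference between replicates correlated across genes between groups at r from 0.17 to 0.42 over 6 pairs of groups. The numbers may thus pair the arrays, though the labels state no block. The fit above leaves the replicate number out, and so do its p-values. The replicate block was an alternative. Other alternatives were a term for the suffix RR1 in array names, a variance trend, a 40th percentile filter, the mean of probe sets, no _x_at or _s_at probe sets, quantile normalization, array weights, all probe sets, only the arrays compared, and each array left out.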

Additional observations from a re-analysis of the deposited data

How the results depend on the processing

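For the 7 genes, 847 values were recomputed under the other settings. Of these, 790 kept their direction and side of the threshold, 14 lost a call, 5 gained one and 38 changed sign, in comparisons where that gene had not passed. The 5 gains were Clec7a for the averaged PGN effect (replicate block, variance trend, quantile normalization and 1 array left out) and Pglyrp1 in NOD.Idd3 (variance trend). The averaged falls of Clec10a and Pglyrp1 passed under all 17 settings, the replicate block included. The replicate block changed no other call of the 7 genes. Causes were not tested.

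The number of genes that passed depended on the setting. For the averaged PGN effect 2049 genes passed, against 3082 with the replicate block, 3933 probe sets when all were tested, and 1111 to 2139 with 1 array left out. In NOD.Idd3 572 passed, against 1207 with the replicate block, 235 with the RR1 term, 994 with array weights, 1058 probe sets, and 56 to 624 with 1 array left out. In NOD 717 passed, against 1586 with the replicate block, 410 with array weights, 416 with only the 4 arrays compared, 1403 probe sets, and 77 to 876 with 1 array left out. For the averaged strain difference the replicate block called 27 in place of 0.

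Sign changes with 1 array left out concerned small estimates. For the averaged PGN effect Pglyrp2 ran from -0.20 to 0.21 and Clec4d from -0.11 to 0.13. In NOD.Idd3 Clec4e ran from -0.02 to 0.17, and in NOD Pglyrp2 ran from -0.13 to 0.69, Clec4d from -0.07 to 0.41 and Clec4n from -0.39 to 0.06. The difference in response ran from -0.78 to 0.00 for Clec4n. Unstimulated strain differences ran from -0.08 to 0.25 (Pglyrp1), -0.22 to 0.06 (Clec7a), -0.12 to 0.38 (Clec4e), -0.29 to 0.19 (Clec4d) and -0.18 to 0.22 (Clec4n). With PGN they ran from -0.71 to 0.11 (Pglyrp2), -0.76 to 0.02 (Clec4n) and -0.20 to 0.23 (Clec10a), and averaged over conditions from -0.23 to 0.17 (Pglyrp2), -0.23 to 0.02 (Clec4e) and -0.37 to 0.02 (Clec4n). With the RR1 term, Clec4e in NOD.Idd3 was -0.06, Clec4d averaged -0.07 and the Pglyrp2 strain difference was 0.05. Quantile normalization gave -0.11 for Pglyrp2 with PGN, -0.04 for Clec10a between strains with PGN and 0.05 for Pglyrp2 between strains. The mean of probe sets gave 0.00 for Clec4n between unstimulated strains. Pglyrp2 fell below the 40th percentile filter, and Clec4d has no probe set without the _s_at suffix.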

Other observations

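Of 17 genes of alternative macrophage activation, which often accompany Clec10a in mouse macrophages, 3 rose, 1 fell and 13 did not pass for the averaged effect, with a median of -0.24. The receptor gene Il4ra rose by 1.66 ± 0.19, Socs1, an inhibitor of cytokine signalling, by 1.32 ± 0.23 and the transcription factor gene Irf4 by 1.67 ± 0.36, and the scavenger receptor gene Stab1 fell by 1.14 ± 0.27. Of 15 neutrophil granule genes 2 fell, Mmp9 and Mmp8, and 13 did not pass, with a median of -0.18. Elane, the neutrophil elastase gene, changed by -0.48 ± 0.19 and did not pass.

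Of 12 myeloid transcription factor genes 3 rose and 2 fell, with a median of 0.36. Runx1 rose by 1.58 ± 0.14 and Nr4a1 by 0.82 ± 0.18, and Maf fell by 0.86 ± 0.20. Between strains, averaged over conditions, no gene of these lists passed in limma. The mannose receptor gene Mrc1 stood at -1.56 ± 0.17 (limma adjusted p = 0.0656), the scavenger receptor gene Cd163 at -1.91 ± 0.28 (limma adjusted p = 0.156) and Prtn3, the proteinase 3 gene, at 0.83 ± 0.32 (limma adjusted p = 0.746), all NOD.Idd3 minus NOD.

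Of markers of other cells, 2 of 6 platelet markers fell (Pf4, -1.55 ± 0.25, and Ppbp, -2.67 ± 0.46), as did 1 of 8 T cell markers (Cd3d, -1.48 ± 0.21) and 1 of 6 NK cell markers (Prf1, -0.52 ± 0.14). None passed among 9 B cell, 6 mast cell and basophil and 5 erythroid markers.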
